A study of Mus musculus with 6 samples.

Results

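The genes of MHC class I antigen presentation were followed in mouse acute myeloid leukemia cells with and without deletion of *Phf6*. They were chosen by name as 10 rows of a table of 54532 genes: the heavy chains *H2-K1* and *H2-D1*, the light chain *B2m*, the peptide transporter and loading genes *Tap1*, *Tap2* and *Tapbp*, the immunoproteasome subunits *Psmb8* and *Psmb9*, the transactivator *Nlrc5* and the trimming enzyme *Erap1*. All 10 had enough counts to be tested. RNA-seq was done on leukemia cells sorted by GFP from bone marrow, with *WT Phf6,RE9a* cells as replicates 1, 2 and 3 and *VC Phf6,RE9a* cells as replicates 11, 12 and 13, and values are listed in that order. *WT Phf6,RE9a* cells are *Phf6* fl/y, with a floxed but uncut allele, and *VC Phf6,RE9a* cells are *Vav1-Cre;Phf6* fl/y, in which Cre is driven by a promoter active in blood cells. Both groups began as Lin- fetal liver cells of male mice at E14.5, carried the fusion RUNX1-ETO9a (RE9a) with GFP from a retrovirus, and were passed serially through male recipients. Mice are described in the methods as male and 6 to 8 weeks old. Whether each library came from a separate leukemia is not stated in the labels, so a p-value here takes libraries as independent and may measure technical spread.

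A class I molecule is a heavy chain joined to the invariant light chain β2-microglobulin, and it shows a short peptide from inside the cell to CD8+ T cells. The proteasome cuts the peptides, and in immune cells or after interferon-γ the immunoproteasome subunits take the places of constitutive ones. The transporter TAP moves peptides into the endoplasmic reticulum, where tapasin (*Tapbp*) holds empty class I molecules at TAP and ERAP1 trims peptides to length. NLRC5 enters the nucleus and drives transcription of class I genes together with the RFX complex, CREB or ATF1 and NF-Y.

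The total counts per library lay between 15675358 and 16817994. *Phf6* had 1044, 827 and 1142 counts across *WT Phf6,RE9a* libraries against 388, 314 and 331 across *VC Phf6,RE9a* libraries, a log2 fold change of -1.66 with an adjusted p of 9.32e-05 by edgeR's quasi-likelihood test. Deletion of *Phf6* came with higher levels of 6 of 9 myeloid markers and a lower level of 1, *Kit*. *Kit* went from between 1876 and 2697 CPM (counts scaled to library size) to between 217 and 352 CPM. Summed, the 9 myeloid markers went from between 2097 and 2859 CPM, most of it *Kit*, to between 545 and 808 CPM. All 8 erythroid markers were higher, and their summed level went from between 1474 and 2241 CPM to between 5127 and 6087 CPM. Among all genes tested, 21.5% were higher and 22.7% lower. The summed level of 6 B cell markers went from between 0.611 and 1.10 CPM to between 9.03 and 26.9 CPM, and that of 6 macrophage markers from between 10.8 and 19.3 to between 26.0 and 32.0 CPM. T cell markers summed to between 9.15 and 13.4 CPM and to between 12.4 and 15.3 CPM, but of the 2 that could be tested *Cd247*, which made up most of the *WT Phf6,RE9a* sum, fell (log2 fold change -0.83, edgeR adjusted p = 0.0187) and *Lck* rose (3.25, edgeR adjusted p = 0.000562). Dendritic cell markers ran from 4.61 to 8.35 and from 7.60 to 13.05 CPM, and endothelial and stromal markers from 1.49 to 3.87 and from 6.95 to 8.91 CPM. The summed NK cell markers went from between 166 and 718 CPM, nearly all of it *Gzmb*, to between 1.37 and 3.72 CPM, of which *Gzmb* was 0.356 to 1.54 CPM. No marker was at 0 in all libraries of a group, and the part of these shifts in the results on class I genes was not tested. In sorted bulk cells, fewer cells of a type and less RNA per cell cannot be told apart.

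Class I genes as a group did not move one way. Of the 10 genes, *Tapbp* rose, *Psmb8* fell and 8 did not pass an adjusted p of 0.05 in edgeR's quasi-likelihood test. Among all 14169 genes tested, 21.5% were higher and 22.7% were lower in *VC Phf6,RE9a* cells, 44.2% in either direction. The median log2 fold change of the 10 genes was -0.0050, against 0.013 over all genes. The 3 libraries of each group did not overlap for 5 of the 10 genes, against 57.3% of all genes tested.

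**Figure D1:**
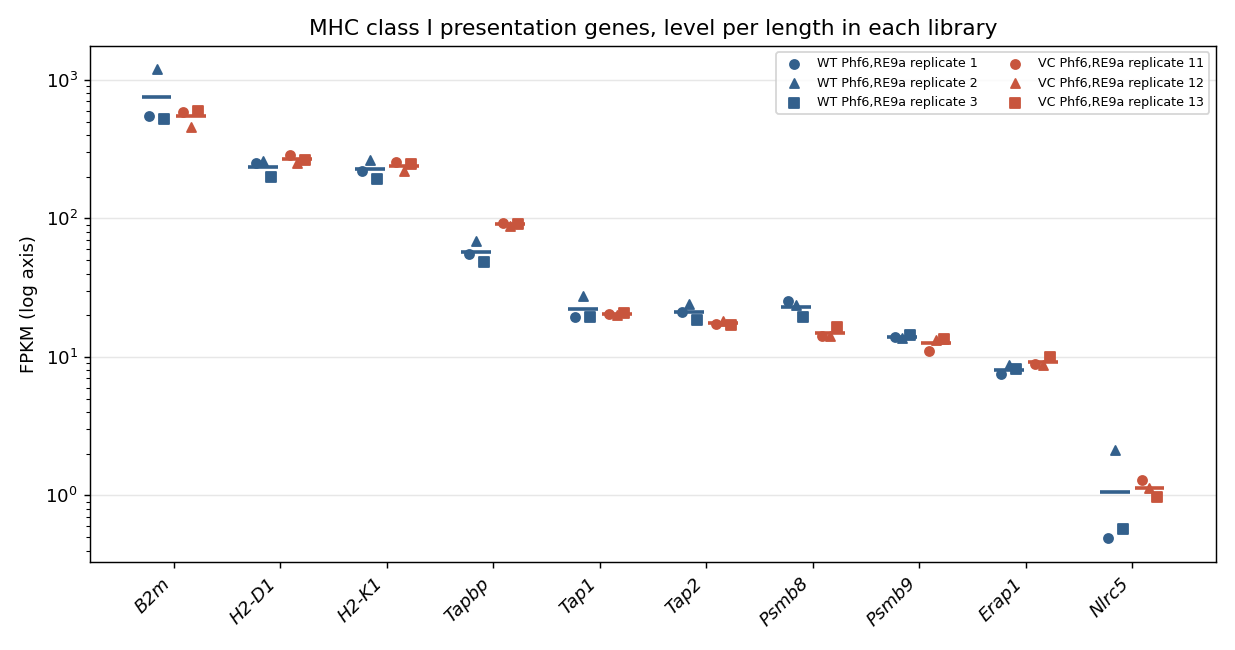
Level of each of the 10 class I genes in FPKM (counts per gene length and library size, log axis) in every library, with *WT Phf6,RE9a* in blue, *VC Phf6,RE9a* in red and the group mean as a line. *Tapbp* and *Psmb8* show groups that lie apart, as do *Tap2*, *Psmb9* and *Erap1* by narrower margins. *WT Phf6,RE9a* replicate 2 (blue triangle) stands above replicates 1 and 3 for *B2m* and *Nlrc5*.

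Per length, in FPKM (counts scaled to gene length and library size), the 10 genes spanned a wide range of levels. In *VC Phf6,RE9a* cells the mean of *B2m*, the highest, was 480-fold that of *Nlrc5*, the lowest. *B2m* was at 547 ± 75.9 FPKM (SD, n = 3), *H2-D1* at 266 ± 17.3 and *H2-K1* at 240 ± 18.3 FPKM, and the libraries of *H2-D1* and *H2-K1* overlapped. *Tapbp* followed at 90.5 ± 2.41 FPKM, then *Tap1* at 20.4 ± 0.436, *Tap2* at 17.5 ± 0.548, *Psmb8* at 14.9 ± 1.33 and *Psmb9* at 12.6 ± 1.41 FPKM, with no overlap between neighbours from *Tapbp* to *Psmb9*. *Erap1*, at 9.16 ± 0.645 FPKM, and *Nlrc5*, at 1.14 ± 0.157 FPKM, were the lowest. The order was the same in *WT Phf6,RE9a* cells except that *Psmb8*, at 22.8 ± 3.07 FPKM, ranked 5 there in place of 7, among *Tap1* and *Tap2* libraries that overlapped with it. The order and the 480-fold range rest on the deposited gene lengths. These were 3659 bases for *Psmb9* and 5476 for *Tap1*, against 1352 and 2953 in the longest coding transcript, but 860 in both for *B2m*. Levels per transcript length were not computed, and the order by them can differ.

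Neither classical heavy chain passed the test. *H2-K1* (chr17:33996017-34000333, minus strand) had 8890, 10242 and 8384 counts across *WT Phf6,RE9a* libraries against 11456, 9931 and 10956 across *VC Phf6,RE9a* libraries. The groups overlapped once depth was taken into account, since *WT Phf6,RE9a* replicate 2, at 695 CPM, was above all *VC Phf6,RE9a* libraries. Mean levels were 593 ± 94.7 CPM (*WT Phf6,RE9a*) and 635 ± 50.7 CPM (*VC Phf6,RE9a*; SD, n = 3), and the log2 fold change was 0.10 with a 95% interval from -0.21 to 0.41 (edgeR adjusted p = 0.584). *H2-D1* (chr17:35262730-35267499, plus strand) had 9911, 9914 and 8595 counts against 12625, 11196 and 11627. Its lowest *VC Phf6,RE9a* library, at 652 CPM, lay under *WT Phf6,RE9a* replicate 2, at 673 CPM. The log2 fold change was 0.19 with a 95% interval from -0.10 to 0.47 (edgeR adjusted p = 0.256). These intervals leave room for a change of *H2-D1* of up to 0.47 on the log2 scale in one direction and 0.10 in the other.

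The difference in the light chain rested on a single library. *B2m* (chr2:122147686-122153083, plus strand) had 7212, 15208 and 7479 counts across *WT Phf6,RE9a* libraries against 8706, 6823 and 8715 across *VC Phf6,RE9a* libraries. *WT Phf6,RE9a* replicate 2 stood at 2.24 times the mean of replicates 1 and 3, and the other 5 libraries lay together between 398 and 518 CPM. The log2 fold change was -0.45 (standard error 0.31, 95% interval from -1.18 to 0.28, edgeR adjusted p = 0.281). Without *WT Phf6,RE9a* replicate 2 it turned to 0.04, with an adjusted p of 0.838. *B2m* lies wholly within *Patl2* on the opposite strand, and *Patl2* had 293, 874 and 290 counts across *WT Phf6,RE9a* libraries against 370, 314 and 506 across *VC Phf6,RE9a* libraries, so it too was highest in replicate 2. The use of strand in the counting is not given in the sources used here, and without it reads of the 2 genes cannot be told apart.

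Heavy chains other than the classical pair included the largest changes among the class I lists over all 6 libraries. Without *WT Phf6,RE9a* replicate 2, the interferon-γ inducible gene *Iigp1* had a larger one. Its log2 fold change was then 5.88 (edgeR adjusted p = 0.0011), against 3.33 for *H2-Q6* and *H2-Q7*. Of 21 listed heavy chain genes 20 were matched by name, 13 could be tested, 6 rose and 1 fell, with a median log2 fold change of 0.50. Among all genes tested, 21.5% were higher and 22.7% lower. *H2-Q7*, a gene of the Qa-2 antigen, had 11, 12 and 19 counts across *WT Phf6,RE9a* libraries against 219, 160 and 107 across *VC Phf6,RE9a* libraries. Each *VC Phf6,RE9a* library was above every *WT Phf6,RE9a* library, and the level rose from 0.893 ± 0.228 to 9.54 ± 3.29 CPM (SD, n = 3), and the log2 fold change was 3.40 (standard error 0.36, edgeR adjusted p = 0.000328). *H2-Q6*, the neighbouring Qa-2 gene, had 10, 22 and 26 counts against 263, 186 and 133 (log2 fold change 3.20, standard error 0.40, edgeR adjusted p = 0.000679). *H2-Q10*, known as a secreted class I molecule of liver, had 4, 7 and 6 counts against 58, 72 and 20, a log2 fold change of 2.98. These genes stayed far below the classical heavy chains: *H2-Q6* reached 5.41 ± 1.83 FPKM in *VC Phf6,RE9a* cells. The summed B cell markers were at 26.3, 26.9 and 9.03 CPM in the same 3 libraries and at most 1.10 CPM in *WT Phf6,RE9a* libraries, and their part in the rise of the H2-Q genes was not tested.

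*H2-T24* combined a large change with a higher level. It had 438, 518 and 421 counts across *WT Phf6,RE9a* libraries against 1442, 1477 and 1981 across *VC Phf6,RE9a* libraries. The groups lay far apart, at 29.7 ± 4.95 and 96.3 ± 18.5 CPM, a log2 fold change of 1.70 (standard error 0.17, edgeR adjusted p = 0.000254). *H2-T23*, which encodes Qa-1, the ligand of CD94/NKG2 receptors, had 4158, 5284 and 3901 counts against 6862, 6603 and 7340. It was the most abundant heavy chain after the classical pair, at 99.1 ± 21.7 and 140 ± 8.05 FPKM, and rose by a log2 fold change of 0.50 (standard error 0.15, edgeR adjusted p = 0.0311). *Fcgrt*, the heavy chain of the neonatal Fc receptor, also rose, with 12, 19 and 10 counts against 41, 46 and 45. *Hfe*, a heavy chain that acts in iron uptake and presents no peptide, was the 1 gene that fell, with 116, 164 and 126 counts against 81, 71 and 74 and a log2 fold change of -0.98. *H2-Q4*, with 791, 1173 and 721 counts against 1722, 1299 and 1438, overlapped between the groups (log2 fold change 0.59, edgeR adjusted p = 0.0623). Without *WT Phf6,RE9a* replicate 2, *H2-Q4* and *H2-T22* also passed, which made 8 of 13, against 19.5% of all genes tested in that fit. Without any other single library 5 rose, while between 2179 of 14580 and 3132 of 14736 genes rose among all tested.

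**Figure D2:**
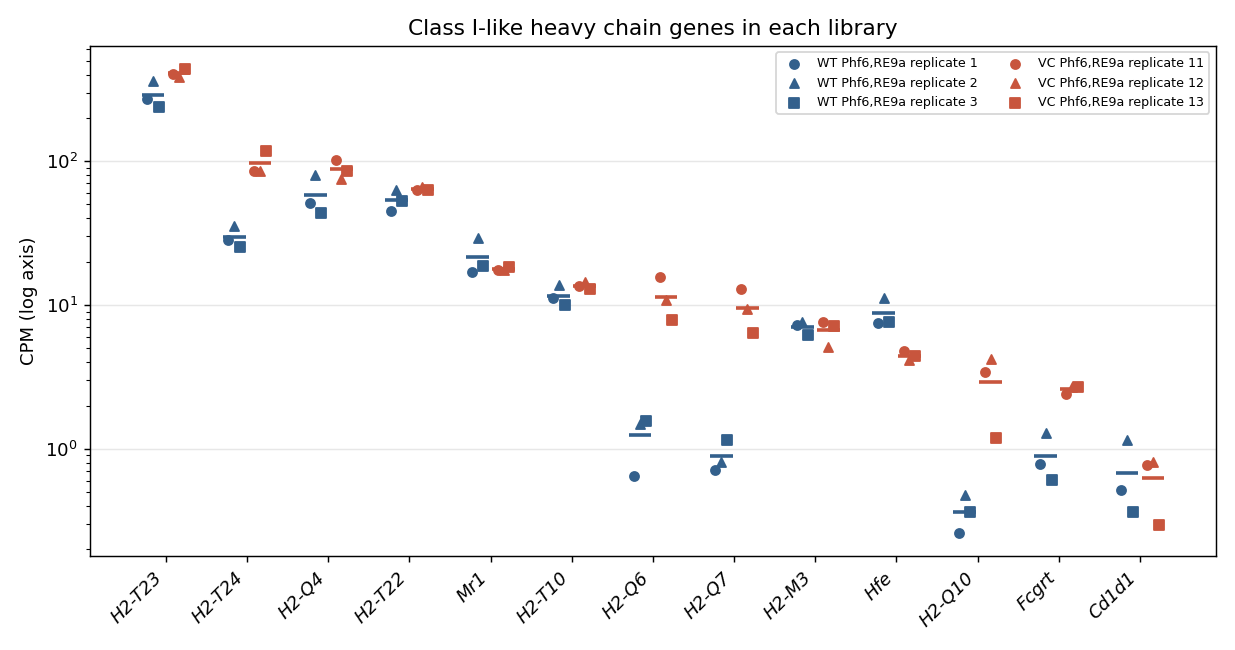
Level of the 13 tested heavy chain genes other than *H2-K1* and *H2-D1* in CPM (log axis) in every library, with the group mean as a line. For *H2-Q6*, *H2-Q7*, *H2-Q10* and *H2-T24* all *VC Phf6,RE9a* libraries (red) stood above all *WT Phf6,RE9a* libraries (blue), while *H2-M3* and *Cd1d1* overlapped.

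Reads can be shared among these heavy chains. Of all stretches of 50 bases in the longest coding transcript, 8.79% in *H2-K1* and 14.3% in *H2-D1* also occurred in a transcript of another gene. The share was 32.0% in *H2-Q6* and 34.9% in *H2-Q7*, each of which shared most with the other, and 3.23% in *H2-T24*. Over stretches of 150 bases, the read length in the methods, it was 5.99% in *H2-Q6*, 9.68% in *H2-Q7*, 1.79% in *H2-D1* and 0 in *H2-K1* and *H2-T24*. How shared reads were counted is not given in the sources used here, and counts of *H2-Q6* and *H2-Q7* as single genes are uncertain to that extent. When the counts of *H2-K1*, *H2-D1* and the other H2 genes, 18 in all, were summed to 1 gene, the totals came to 25197, 28431 and 23218 across *WT Phf6,RE9a* libraries against 36075, 32395 and 35008 across *VC Phf6,RE9a* libraries. The groups of raw totals lay apart, but the scaled sum did not pass the test (log2 fold change 0.30, standard error 0.14, edgeR adjusted p = 0.125). *H2-K1* and *H2-D1* made up between 64.5% and 74.6% of it.

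The promoters of the heavy chains were compared because *H2-Q6* and *H2-Q7* rose while *H2-K1* and *H2-D1* did not pass. The 200 bases before the RefSeq start (GRCm38.p6) are given 5′ to 3′, and capitals mark every match to an NF-κB consensus site and to TGACG, the core of the X2 or CRE element bound by CREB and ATF1.
H2-K1, chr17:34000348-34000547, minus strand: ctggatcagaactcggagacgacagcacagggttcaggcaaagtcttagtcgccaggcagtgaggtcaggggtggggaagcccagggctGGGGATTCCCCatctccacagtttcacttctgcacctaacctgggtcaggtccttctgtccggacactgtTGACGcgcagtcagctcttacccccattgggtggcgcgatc
H2-D1, chr17:35262894-35263093, plus strand: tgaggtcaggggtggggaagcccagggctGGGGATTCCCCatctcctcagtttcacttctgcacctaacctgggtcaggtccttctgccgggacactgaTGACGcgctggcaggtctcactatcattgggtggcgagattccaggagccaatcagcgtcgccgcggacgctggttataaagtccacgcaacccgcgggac
H2-Q6, chr17:35424650-35424849, plus strand: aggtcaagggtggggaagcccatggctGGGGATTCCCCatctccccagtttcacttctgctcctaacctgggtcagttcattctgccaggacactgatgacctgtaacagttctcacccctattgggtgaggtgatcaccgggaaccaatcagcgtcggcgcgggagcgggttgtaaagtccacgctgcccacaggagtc
H2-Q7, chr17:35438955-35439154, plus strand: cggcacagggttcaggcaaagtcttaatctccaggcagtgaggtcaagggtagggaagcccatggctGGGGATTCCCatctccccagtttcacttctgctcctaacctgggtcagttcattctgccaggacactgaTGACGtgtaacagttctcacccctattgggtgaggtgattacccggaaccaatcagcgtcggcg
The windows of *H2-Q6* and *H2-Q7*, from 250 bases before to 50 bases after the start, were identical at 97.7% of aligned bases. *H2-K1* and *H2-D1* were identical at 88.3%, and the classical and Qa-2 genes at 81.5% to 86.6%. All 4 held the NF-κB consensus, which 8.46% of 32851 windows held, and all but *H2-Q6* held TGACG, which 20.8% of windows held. CCAAT, the box bound by NF-Y, stood on the minus strand and then on the plus strand in each of the 4, and 37.4% of all windows held it on either strand.

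Of the transporter and loading genes, *Tapbp* was the gene that rose. *Tapbp* (chr17:33915899-33929288, plus strand) had 2827, 3362 and 2671 counts across *WT Phf6,RE9a* libraries against 5236, 5006 and 5147 across *VC Phf6,RE9a* libraries. The highest *WT Phf6,RE9a* library, replicate 2 at 228 CPM, lay under the lowest *VC Phf6,RE9a* library at 292 CPM. The level rose from 191 ± 33.9 to 302 ± 9.27 CPM (SD, n = 3), which is 1.58-fold, and the log2 fold change was 0.66 (standard error 0.13, 95% interval from 0.36 to 0.96, edgeR adjusted p = 0.00494). Over the alternatives the adjusted p ran from 8.66e-05 to 0.0210. *Tapbp* shares 3421 bases with *Zbtb22* on the same strand, and *Zbtb22* had 643, 569 and 655 counts across *WT Phf6,RE9a* libraries against 689, 749 and 713 across *VC Phf6,RE9a* libraries, at most 18.5% of the mean count of *Tapbp*.

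Neither subunit of the TAP transporter passed. *Tap1* (chr17:34187553-34197225, plus strand) had 1644, 2243 and 1774 counts across *WT Phf6,RE9a* libraries against 1908, 1895 and 1960 across *VC Phf6,RE9a* libraries, and only *WT Phf6,RE9a* replicate 2 stood apart, at 152 CPM against 107 to 116 CPM in the other 5 libraries. Its log2 fold change was -0.11 (95% interval from -0.44 to 0.22, edgeR adjusted p = 0.570) and turned to 0.07 without that library. *Tap2* (chr17:34203527-34216321, plus strand) had 1220, 1356 and 1168 counts against 1127, 1179 and 1099. All *VC Phf6,RE9a* libraries of *Tap2* lay under the *WT Phf6,RE9a* libraries, from 65.3 to 68.7 CPM against 70.7 to 92.0 CPM. The log2 fold change was -0.27 (standard error 0.11, edgeR adjusted p = 0.0765), and without *WT Phf6,RE9a* replicate 3 it was -0.36 and passed at an adjusted p of 0.0206.

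Other genes of peptide loading and the chaperones of the endoplasmic reticulum were mostly not past the threshold. Of 11 genes 1 rose and 0 fell by edgeR's test, with a median log2 fold change of -0.0090, against 21.5% higher and 22.7% lower among all genes tested. The gene that rose was *Ganab*, a glucosidase subunit that trims glycans before calnexin and calreticulin bind, from 228 ± 10.2 to 292 ± 2.45 CPM (log2 fold change 0.36, edgeR adjusted p = 0.00755). *Tapbpl*, the tapasin-related peptide editor, had 234, 252 and 255 counts across *WT Phf6,RE9a* libraries against 380, 311 and 354 across *VC Phf6,RE9a* libraries. Its groups lay apart at 15.9 ± 1.04 and 20.5 ± 2.20 CPM, but the adjusted p was 0.0612. *Calr*, the chaperone calreticulin of the loading complex, was at 823 ± 131 and 737 ± 95.2 CPM (edgeR adjusted p = 0.425). *Hspa5*, the general chaperone BiP, was at 1518 ± 186 and 1509 ± 391 CPM, and *P4hb*, a disulfide isomerase, at 532 ± 24.5 and 471 ± 2.55 CPM (edgeR adjusted p = 0.975 and 0.125).

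The immunoproteasome gene *Psmb8* fell. *Psmb8* (chr17:34197721-34201454, plus strand), which encodes LMP7 and takes the place of *Psmb5*, had 1071, 963 and 889 counts across *WT Phf6,RE9a* libraries against 661, 667 and 769 across *VC Phf6,RE9a* libraries. The highest *VC Phf6,RE9a* library, at 45.7 CPM, lay under the lowest *WT Phf6,RE9a* library, at 53.8 CPM. The level fell from 62.9 ± 8.14 to 41.2 ± 3.90 CPM (SD, n = 3), and the log2 fold change was -0.61 (standard error 0.12, 95% interval from -0.90 to -0.32, edgeR adjusted p = 0.00585). Over the alternatives the adjusted p ran from 0.000405 to 0.0302. *Psmb9* (chr17:34181988-34187764, minus strand), which encodes LMP2, had 781, 747 and 876 counts against 689, 838 and 851. Its groups lay apart by a narrow margin, from 50.7 to 53.0 CPM against 40.7 to 50.6 CPM, and the log2 fold change of -0.14 did not pass (95% interval from -0.38 to 0.10, edgeR adjusted p = 0.312). *Tap1* and *Psmb9* run in opposite directions from starts 226 bases apart in RefSeq and overlap by 212 bases as deposited.

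The promoters of the class I genes that rose and fell are given in the same way, with that of *B2m*, and capitals here also mark the core of the interferon-stimulated response element (ISRE), which is GAAA, any 2 bases and GAAA.
Tapbp, chr17:33919278-33919477, plus strand: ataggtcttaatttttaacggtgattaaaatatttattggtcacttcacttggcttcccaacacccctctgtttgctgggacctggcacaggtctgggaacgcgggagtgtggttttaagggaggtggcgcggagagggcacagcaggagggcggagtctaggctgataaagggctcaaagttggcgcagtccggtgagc
Psmb8, chr17:34197995-34198194, plus strand: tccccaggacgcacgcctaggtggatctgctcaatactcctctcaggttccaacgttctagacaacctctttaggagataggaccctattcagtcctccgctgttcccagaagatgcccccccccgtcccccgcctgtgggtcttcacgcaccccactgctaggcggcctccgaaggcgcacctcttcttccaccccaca
B2m, chr2:122147487-122147686, plus strand: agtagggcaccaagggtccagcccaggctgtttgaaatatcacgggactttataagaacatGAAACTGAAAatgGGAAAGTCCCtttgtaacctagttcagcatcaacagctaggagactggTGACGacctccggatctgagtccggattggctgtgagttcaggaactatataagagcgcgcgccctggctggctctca
*B2m* held the ISRE core, bound by interferon regulatory factors, at positions -139 to -130 counted from its start, an NF-κB consensus from -126 to -117 and TGACG from -78 to -74. *Tapbp* held CCAAT but none of the elements in capitals in its RefSeq window. The window of *Psmb8* matched none of the 4 elements given here. The windows of *Tapbp*, *Psmb8*, *Psmb9*, *Erap1* and *H2-D1* begin downstream of the starts as deposited, so the bases before those starts were not searched. Windows were found for 8 of the 10 class I genes and not for *Tap2* and *Nlrc5*. The ISRE core was present in 2 of these 8 (*B2m* and *Erap1*) and in 3.44% of all windows, the NF-κB consensus in 3, TGACG in 5 and CCAAT in 6. The elements were searched on both strands, the NF-κB consensus was matched on both strands at the same bases in the 4 heavy chains, and a match describes letters and not binding. Variants that depart from these exact letters were not searched for. A window with no match, that of a heavy chain included, can therefore still hold an ISRE.

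**Figure D3:**
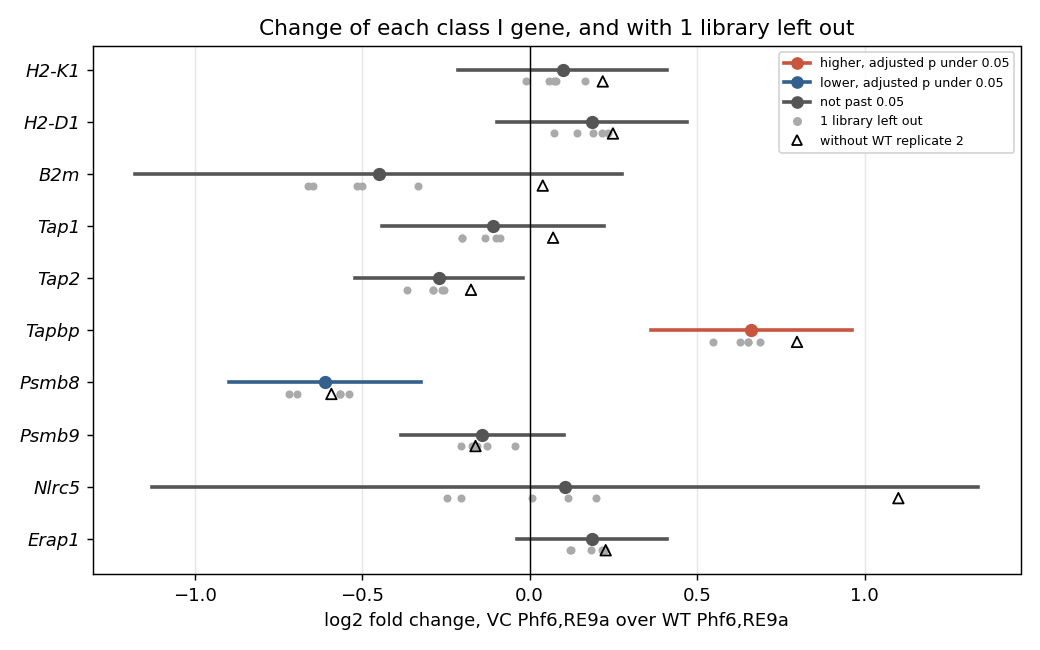
Log2 fold change of each class I gene, *VC Phf6,RE9a* over *WT Phf6,RE9a*, with its 95% interval (line), the values with 1 library left out (grey dots) and that without *WT Phf6,RE9a* replicate 2 (triangle). *Tapbp* (0.66) and *Psmb8* (-0.61) keep their side of 0 throughout, as do *H2-D1*, *Tap2*, *Psmb9* and *Erap1*, which did not pass. *B2m*, *Tap1* and *Nlrc5* move most when replicate 2 is left out.

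Among the constitutive subunits of the 20S core, 7 of 14 genes rose and 1, the partner of *Psmb8*, fell by edgeR's test, with a median log2 fold change of 0.28. The shares over all genes tested were 21.5% higher and 22.7% lower. *Psmb7* rose from 52.8 ± 4.18 to 70.5 ± 1.39 CPM (log2 fold change 0.42), *Psmb3* from 79.5 ± 6.87 to 105 ± 4.51 CPM (0.41) and *Psma3* from 62.9 ± 1.31 to 78.8 ± 2.07 CPM (0.33), with edgeR adjusted p-values of 0.00721, 0.00880 and 0.00961. *Psmb5*, the chymotrypsin-like subunit that *Psmb8* replaces, was the gene that fell, with 763, 529 and 774 counts across *WT Phf6,RE9a* libraries against 563, 569 and 580 across *VC Phf6,RE9a* libraries (log2 fold change -0.39, edgeR adjusted p = 0.0438). The call of *Psmb5* was lost when any library but *WT Phf6,RE9a* replicate 2 was left out, and the count of genes that rose was 3 without *VC Phf6,RE9a* replicate 11 or 13. Over all genes, 2179 of 14580 and 2404 of 14757 rose without replicate 11 and 13, against 3047 of 14169 with all libraries. *Psmb6*, the subunit that *Psmb9* replaces, rose from 67.2 ± 7.21 to 83.0 ± 3.17 CPM (log2 fold change 0.30, edgeR adjusted p = 0.0384).

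Subunits of the PA28 cap, which opens the proteasome and is induced with the immunoproteasome, fell along with *Psmb8*. Of 6 other immunoproteasome and PA28 genes, 2 fell and 0 rose by edgeR's test, with a median log2 fold change of 0.16. By the same test 22.7% of all genes fell and 21.5% rose. *Psme1* (PA28α) had 2090, 1858 and 2467 counts across *WT Phf6,RE9a* libraries against 1659, 1722 and 1569 across *VC Phf6,RE9a* libraries, a log2 fold change of -0.50 (edgeR adjusted p = 0.00343). *Psme2* (PA28β) had 674, 657 and 759 counts against 629, 500 and 506, a log2 fold change of -0.48 (edgeR adjusted p = 0.0126). For both, the groups did not overlap, which held for 5 of these 6 genes and 57.3% of all genes tested. *Psme3* (PA28γ, a nuclear cap outside the class I pathway) was at 183 ± 33.6 and 238 ± 10.3 CPM and missed the threshold (log2 fold change 0.38, edgeR adjusted p = 0.0501). *Psmb10*, the last immunoproteasome subunit, had 543, 464 and 675 counts against 848, 728 and 738, with groups that lay apart and a log2 fold change of 0.34 (edgeR adjusted p = 0.0584). Without *VC Phf6,RE9a* replicate 12 or 13, 1 gene fell in place of 2, and without *WT Phf6,RE9a* replicate 3, 2 genes rose in place of 0. Over all genes, 2574 of 14668 fell without replicate 12 and 2613 of 14757 without replicate 13. Without *WT Phf6,RE9a* replicate 3, 3132 of 14736 rose.

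Within each library, the ratio of an immunoproteasome subunit to its constitutive partner was taken per length. The size of a ratio rests on the deposited gene lengths, which are the same in every library. The ratio of *Psmb9* to *Psmb6* was 0.351, 0.435 and 0.400 across *WT Phf6,RE9a* libraries against 0.245, 0.296 and 0.326 across *VC Phf6,RE9a* libraries. Every *VC Phf6,RE9a* ratio was the lower, a difference of -0.46 in log2, with an exact 2-sided permutation p of 0.1, the smallest that 3 against 3 libraries can give, and 0.4 after adjustment over the 4 ratios compared. The ratio of *Psmb8* to *Psmb5* was 0.461, 0.598 and 0.377 against 0.386, 0.385 and 0.436, with groups that overlapped (exact permutation p = 0.4, adjusted 0.5). That of *Psmb10* to *Psmb7* was 1.27, 1.31 and 1.497 against 1.45, 1.22 and 1.22 and overlapped too (exact permutation p = 0.5, adjusted 0.5). The classical heavy chains together stood to *B2m* as 0.865, 0.439 and 0.753 across *WT Phf6,RE9a* libraries against 0.917, 1.03 and 0.859 across *VC Phf6,RE9a* libraries. The difference of 0.50 in log2 had an exact permutation p of 0.2 (adjusted 0.4) and was 0.21 without *WT Phf6,RE9a* replicate 2.

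**Figure D4:**
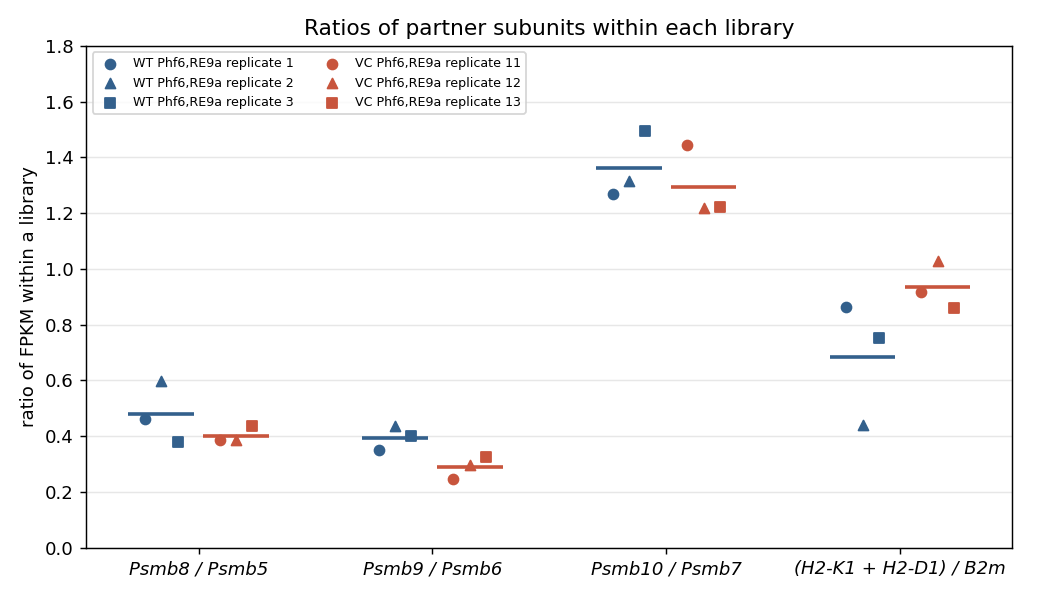
Ratio of FPKM values within each library (linear axis from 0) for 3 immunoproteasome subunits over the constitutive subunit each replaces, and for the summed classical heavy chains over *B2m*, with the group mean as a line. The groups lie apart for *Psmb9* over *Psmb6* and overlap for the rest, and *WT Phf6,RE9a* replicate 2 (blue triangle) is the low point of the heavy chain ratio.

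The trimming enzyme *Erap1* did not pass, and 4 cytosolic peptidases fell. *Erap1* (chr13:74639568-74693201, plus strand) had 844, 938 and 989 counts across *WT Phf6,RE9a* libraries against 1104, 1100 and 1236 across *VC Phf6,RE9a* libraries. The groups lay apart by less than 1 CPM, since *WT Phf6,RE9a* replicate 2 was at 63.6 CPM and *VC Phf6,RE9a* replicate 12 at 64.1 CPM. The log2 fold change was 0.19 (95% interval from -0.04 to 0.41, edgeR adjusted p = 0.158), and *Cast*, which overlaps *Erap1* by 834 bases on the opposite strand, had between 1907 and 2608 counts. Of 8 peptidases that can trim or destroy peptides in the cytosol or endosome, 4 fell and 0 rose by edgeR's test, with a median log2 fold change of -0.29. For comparison, 22.7% of all genes tested fell and 21.5% rose. *Blmh* (bleomycin hydrolase) fell from 133 ± 16.5 to 94.0 ± 3.08 CPM, a log2 fold change of -0.50 (edgeR adjusted p = 0.00661). *Tpp2* (tripeptidyl peptidase) fell from 126 ± 3.46 to 99.8 ± 3.71 CPM and *Npepps* (the puromycin-sensitive aminopeptidase) from 107 ± 3.12 to 85.0 ± 4.04 CPM, with log2 fold changes of -0.34 and -0.33. *Dpp9* was the fourth, at -0.25. *Lnpep*, the endosomal aminopeptidase of cross-presentation, was at 342 ± 50.4 and 303 ± 11.4 CPM (edgeR adjusted p = 0.266), and *Nrd1* at 201 ± 12.1 and 203 ± 1.91 CPM. Without *VC Phf6,RE9a* replicate 13, 2 peptidases fell, and over all genes 2613 of 14757 fell in that fit, against 3213 of 14169 with all libraries.

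*Nlrc5*, the class I transactivator, had the largest standard error of the 10 genes. *Nlrc5* (chr8:94434356-94527272, plus strand) had 64, 270 and 81 counts across *WT Phf6,RE9a* libraries against 189, 167 and 143 across *VC Phf6,RE9a* libraries. *WT Phf6,RE9a* replicate 2, at 18.3 CPM, stood at 4.05 times the mean of replicates 1 and 3, and the *VC Phf6,RE9a* libraries, from 8.50 to 11.2 CPM, lay between replicate 2 and the other two. Over all 6 libraries the log2 fold change was 0.11 (standard error 0.53, 95% interval from -1.13 to 1.34, edgeR adjusted p = 0.892). It was 1.10 without *WT Phf6,RE9a* replicate 2, with a standard error of 0.22 and an adjusted p of 0.00856, and in that fit 19.5% of all tested genes were higher. It was -0.25 without replicate 1 and -0.20 without replicate 3, with adjusted p-values of 0.728 and 0.788.

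Of 17 regulators of class I transcription, 4 rose and 4 fell by edgeR's test, with a median log2 fold change of 0.11. These shares were close to the 21.5% higher and 22.7% lower among all genes tested. Within the RFX complex, which binds the class I promoter with NLRC5, *Rfxap* rose from 19.8 ± 1.59 to 27.1 ± 1.74 CPM (log2 fold change 0.45, edgeR adjusted p = 0.0172) and *Rfxank* rose by 0.36 in log2, while *Rfx5* fell by 0.40. The kinases of interferon-γ signaling fell, *Jak2* from 271 ± 27.4 to 194 ± 11.8 CPM (log2 fold change -0.49, edgeR adjusted p = 0.00618) and *Jak1* from 491 ± 27.4 to 386 ± 24.5 CPM (-0.35, edgeR adjusted p = 0.0186). *Nfkb1*, the p50 precursor of NF-κB, fell from 382 ± 29.1 to 278 ± 25.6 CPM (log2 fold change -0.46, edgeR adjusted p = 0.00914), and *Rela*, its p65 partner, was at 197 ± 28.4 and 158 ± 16.4 CPM (edgeR adjusted p = 0.0807). *Atf1* and the receptor gene *Ifngr1* rose, the latter from 37, 53 and 88 counts to 220, 140 and 94. Without *WT Phf6,RE9a* replicate 1 or any single *VC Phf6,RE9a* library, 1 regulator rose in place of 4, and without *VC Phf6,RE9a* replicate 12, 2 fell. The number of all tested genes that rose dropped too, from 3047 of 14169 to between 2179 of 14580 and 2472 of 14696. Without *VC Phf6,RE9a* replicate 12, 2574 of 14668 genes fell, against 3213 of 14169 with all libraries.

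Genes that interferon-γ induces in many cells were split. Of 16 listed genes 14 could be tested, and 5 rose and 2 fell by edgeR's test. The median log2 fold change of these 14 was 0.42. As a baseline from the same fit, 21.5% of the 14169 genes tested were higher and 22.7% were lower. The GTPase genes *Irgm1* and *Irgm2*, which act against pathogens in vacuoles, rose together. *Irgm1* had 549, 921 and 772 counts across *WT Phf6,RE9a* libraries against 2392, 2301 and 2505 across *VC Phf6,RE9a* libraries (log2 fold change 1.55, standard error 0.19, edgeR adjusted p = 0.000552). *Irgm2* had 133, 198 and 151 counts against 529, 500 and 570, a log2 fold change of 1.60. *Igtp*, *Gbp3* and *Tgtp1*, further GTPases of this response, were the other genes that rose, at 1.25, 1.23 and 2.07 in log2. *Socs1*, the inhibitor of JAK signaling, fell from 56.1 ± 9.22 to 19.4 ± 3.61 CPM (log2 fold change -1.53, standard error 0.17, edgeR adjusted p = 0.000422). *Cd274*, which encodes the T cell checkpoint ligand PD-L1, had 2317, 2534 and 1714 counts against 1119, 967 and 1034 and fell by 1.21 in log2 (edgeR adjusted p = 0.00141). *Gbp7*, at 108 ± 29.2 and 154 ± 17.3 CPM, and *Ifi47*, at 52.9 ± 17.1 and 59.0 ± 7.80 CPM, did not pass (edgeR adjusted p = 0.0549 and 0.596). Without *WT Phf6,RE9a* replicate 2, 9 of the 16 listed genes rose, against 19.5% of all genes tested in that fit. These included *Gbp4*, which the count filter left out over all 6 libraries. Without *VC Phf6,RE9a* replicate 11, 3 rose, against 2179 of all 14580 genes tested in that fit.

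**Figure D5:**
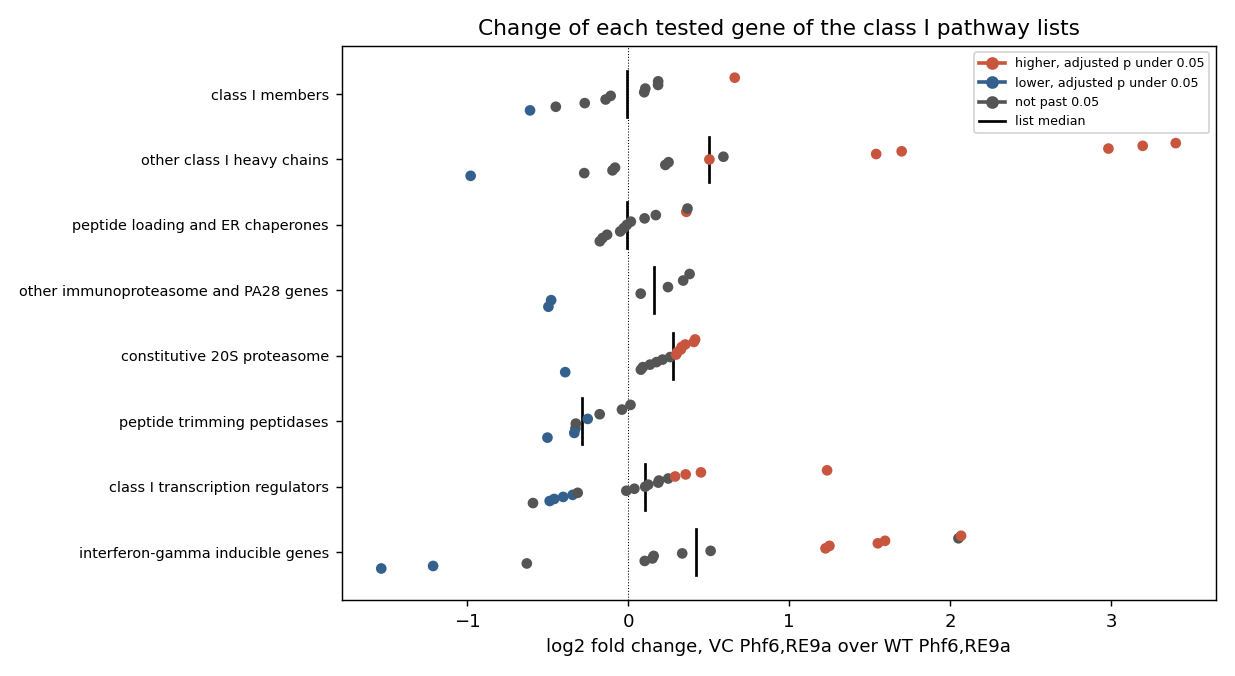
Log2 fold change of every tested gene of the class I lists, *VC Phf6,RE9a* over *WT Phf6,RE9a*, with red for higher and blue for lower at an adjusted p under 0.05, grey for the rest and a black line at each list's median. Over all 6 libraries the largest changes are in other class I heavy chains, at 2.98 to 3.40 for *H2-Q10*, *H2-Q6* and *H2-Q7*, while 8 of the 10 class I members are grey.

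*WT Phf6,RE9a* replicate 2 was high for class I genes in general. Among the *WT Phf6,RE9a* libraries it was the highest for 8 of the 10 class I genes, 11 of the 13 other heavy chains and 13 of the 14 interferon-γ inducible genes, against 35.9% of all genes tested. It was the highest for 0 of the 6 other immunoproteasome and PA28 genes and 2 of the 14 constitutive 20S genes. *B2m* and *Nlrc5* exceeded 2 times the mean of replicates 1 and 3, as 4.70% of all genes did. This library also stood apart on the second principal component of all genes, which held 7.01% of the variance. The comparison of this library with its group was made after its values were seen.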

How the data were processed

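RNA-seq of GFP+ bone marrow leukemia cells was analysed in 3 *WT Phf6,RE9a* and 3 *VC Phf6,RE9a* libraries, grouped by their labels. The authors deposited 1 table of 54532 Ensembl genes with whole-number read counts, from TruSeq libraries sequenced in pairs on a NovaSeq instrument. They also deposited FPKM values, scaled to gene length and to a library size adjusted by size factors. The authors also deposited a DESeq2 comparison, as group means of size-factor-normalized counts (a signal), log2 differences and p-values, none of which was used. The submitters' processing notes name Bowtie 0.12.0 and mm8 without a role, but 98.3% of the 54409 identifiers found in GENCODE M21 (GRCm38) had the same start and end there, and coordinates are given as deposited. The counting tool and its use of strand are not given in the sources used here.

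In R 4.3.3, counts were filtered by filterByExpr of edgeR 4.0.16, scaled by TMM and tested by quasi-likelihood, with p-values adjusted by Benjamini-Hochberg over 14169 genes and a threshold of 0.05. Fold changes are *VC Phf6,RE9a* over *WT Phf6,RE9a*, CPM uses TMM-scaled library sizes, and standard errors are the log2 fold change over the square root of F. Shares of a list are counts with no set test. Ratios of FPKM were compared by an exact permutation test in scipy 1.17.1. The class I genes, the lists and the markers were chosen with earlier results of these data known. Named were the class I genes, *Phf6*, the proteasome partners, the markers over 10 CPM that a sum rests on, and, from every other list, the 3 highest genes by FPKM and the 3 lowest by p. *H2-Q10*, *Fcgrt*, *Hfe*, *H2-T22*, *H2-M3*, *Cd1d1*, *Dpp9*, *Rfxank*, *Rfx5*, *Atf1*, *Ifngr1*, *Igtp*, *Gbp3*, *Tgtp1* and *Iigp1* were named after their values were seen. *Nrd1* was listed as Nrdc, and *H2-T9* was not matched.

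The alternatives were DESeq2 1.42.0, RLE size factors, dropping the count filter or requiring 10 counts in all libraries, limma 3.58.1 with log2(FPKM + 1), omission of single libraries, an adjusted p under 0.01, 1 FPKM added in the ratios, and heavy chains summed. The test was checked on simulated counts. Promoter sequences are from RefSeq (GRCm38.p6), searched by exact letters, and 1 planned element is not reported here. Python 3.11.15 and matplotlib 3.10.9 made the figures.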

Additional observations from a re-analysis of the deposited data

How the results depend on the processing

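Of 354 alternative values, 313 kept their direction and their side of the threshold or stayed within 1.5 times a count. *Tapbp*, *Psmb8* and *Phf6* kept their calls in all of them. When single libraries were omitted, log2 fold changes lay between -0.0097 and 0.22 for *H2-K1*, -0.66 and 0.039 for *B2m*, -0.20 and 0.070 for *Tap1*, and -0.25 and 1.10 for *Nlrc5*, where the value without *WT Phf6,RE9a* replicate 3 was -0.20. Class I genes that rose then numbered from 1 to 2 and those that fell from 1 to 2. Over all genes the numbers higher ran from 2179 of 14580 to 3132 of 14736. Those lower ran from 2511 of 14580 to 3338 of 14736. The ranges were 5 to 8 higher for other heavy chains, 0 to 2 higher and 1 to 2 lower for other immunoproteasome and PA28 genes, 3 to 6 higher and 0 to 1 lower for the constitutive 20S core, 2 to 5 lower for peptidases, 1 to 5 higher and 2 to 6 lower for regulators, and 3 to 9 higher for interferon-γ inducible genes. At an adjusted p under 0.01 no other heavy chain fell (0), 1 PA28 gene fell, 3 genes of the 20S core rose and 0 fell, 2 peptidases fell, 0 regulators rose and 2 fell, and 3 interferon-γ inducible genes rose. The counts over all genes at that stricter threshold are not given here. Limma called 2 loading genes higher. Size factors, DESeq2 and no count filter each called 1 other immunoproteasome or PA28 gene higher, and a minimum of 10 counts called 2. With no count filter 2 regulators rose, against 3046 of all 26046 genes tested. The cause of these shifts was not tested.

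No paired analysis was possible because the labels number the *WT Phf6,RE9a* libraries 1, 2 and 3 and the *VC Phf6,RE9a* libraries 11, 12 and 13. With 3 libraries a group the smallest exact permutation p is 0.1, so the ratios could not pass. Genes read at 3 counts or fewer in every library, such as *H2-T3*, were below what this depth can compare.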

Other observations

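The genes whose pattern over the 6 libraries was most like that of *H2-K1* and of *Nlrc5* were found among 14169 genes by the root mean square difference of log2 CPM, each gene centred on its own mean. For *H2-K1* they were *Gm13736* at 0.0464, *Spryd3* at 0.0547 and *Scand1* at 0.0564, with adjusted p-values from edgeR of 0.936, 0.323 and 0.313. For *Nlrc5* they were *D130020L05Rik* at 0.163, *Vwa8* at 0.194 and *Gm37860* at 0.210. *Vwa8* had 124, 370 and 132 counts across *WT Phf6,RE9a* libraries against 236, 263 and 213 across *VC Phf6,RE9a* libraries, with *WT Phf6,RE9a* replicate 2 the highest library as for *Nlrc5*. Likeness over 6 libraries is a description.

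Among heavy chain genes too low to test, *H2-Q2*, *H2-T3*, *H2-M9* and *H2-M10.1* had 0 counts in all 6 libraries, which allows up to 3 counts in each for counting error alone, or at most 0.191 CPM without scaling. *H2-Q1* had 5, 6 and 3 counts across *WT Phf6,RE9a* libraries against 7, 5 and 2 across *VC Phf6,RE9a* libraries. *Gbp4*, an interferon-γ inducible gene also left out by the filter over all 6 libraries, had 2 counts in each *WT Phf6,RE9a* library and 31, 14 and 9 in *VC Phf6,RE9a* cells.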
